A study of Mus musculus with 12 samples.

Results

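Matricellular genes and genes that crosslink the extracellular matrix were followed in RNA sequencing of mouse colorectal tissue. The 10 genes were taken by their symbols from the table of raw counts, which lists 18514 genes. They are the matricellular genes Postn, Tnc, Spp1, Thbs1, Thbs2 and Sparc, the fibronectin gene Fn1, and the lysyl oxidase genes Lox, Loxl1 and Loxl2. All 10 were in the table, and all 10 passed the filter on low counts that left 15484 genes for testing.

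The study asked how swimming changes the colon of mice with colitis-associated tumours, and sequenced 1 library from each of 12 mice, 3 per group. All mice were male C57BL/6 animals bought at 4 weeks of age. Ctrl mice received neither agent and stood in shallow water instead of swimming, while Ctrl_Swim mice swam up to 90 min per day from before the first day of the model until its end. Model mice were injected with the carcinogen azoxymethane (AOM) at 10 mg/kg. They then drank 2% dextran sulfate sodium (DSS), which injures the colon lining, over 3 cycles. Model_Swim mice received the same AOM and DSS and swam like the Ctrl_Swim mice. The tissue was whole colorectal tissue, and the sources used here do not state whether a piece held tumour or which stretch of the colon it came from, nor whether mice of a group shared a litter or cage. The p-values below measure the spread between these mice.

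Matricellular proteins are secreted into the matrix but act less as building blocks than as modulators, which bind integrins, growth factors and collagen and change how cells attach, migrate and heal a wound. Fibronectin is a large adhesive glycoprotein on which cells assemble new matrix. Lysyl oxidases are copper-dependent enzymes that oxidize lysine residues of collagen and elastin, so that the fibres crosslink and stiffen. In the gut these genes are expressed mostly by fibroblasts, smooth muscle, endothelium and macrophages, and they are known from healing colitis and from the stroma of colorectal tumours.

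Total counts lay between 17256953 and 19451055 per library, so that a count of 3, the limit that a count of 0 allows, is at most 0.172 CPM, the unit used here for counts scaled to library size with TMM factors. This limit covers counting error only. Of general epithelial markers, Epcam lay between 1250.1 and 1658 CPM and Cdh1 between 909 and 1317 CPM over the 12 libraries. They show that epithelium was present but cannot tell colon from other epithelium, so they do not check the colorectal label. The libraries Model 1 and Model 3 stood apart, since 10 genes of pancreatic acinar cells summed to 42521 and 20725 CPM there and to between 11.1 and 95.3 CPM in the other 10 libraries. Results that rest on these 2 libraries are given with and without them.

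Compared per length, by the FPKM values the authors deposited, Postn, Sparc and Fn1 were the most abundant of the 10 genes in the untreated colon. In Ctrl mice Postn had a mean level of 78.7 ± 4.04 FPKM (SD, n = 3), Sparc of 78.4 ± 3.40 FPKM and Fn1 of 64.5 ± 10.2 FPKM. Postn and Sparc overlapped between mice, and all Fn1 values lay narrowly below those of Sparc. Tnc followed at 23.1 ± 1.54 FPKM and Thbs1 at 19.6 ± 2.86 FPKM, also overlapping. The lower levels were those of Loxl1 (5.14 ± 0.283 FPKM) and Loxl2 (4.63 ± 0.613 FPKM), which overlapped, then Thbs2 (2.90 ± 0.549 FPKM), Lox (1.67 ± 0.143 FPKM) and Spp1 (0.624 ± 0.330 FPKM), each without overlap with its neighbours. In Model mice the upper end of this order was different. Sparc then had 147 ± 20.4 FPKM, Fn1 113 ± 30.04 FPKM and Postn 94.96 ± 12.9 FPKM, with overlap between Fn1 and Postn and none between Sparc and Fn1.

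**Figure D1:**
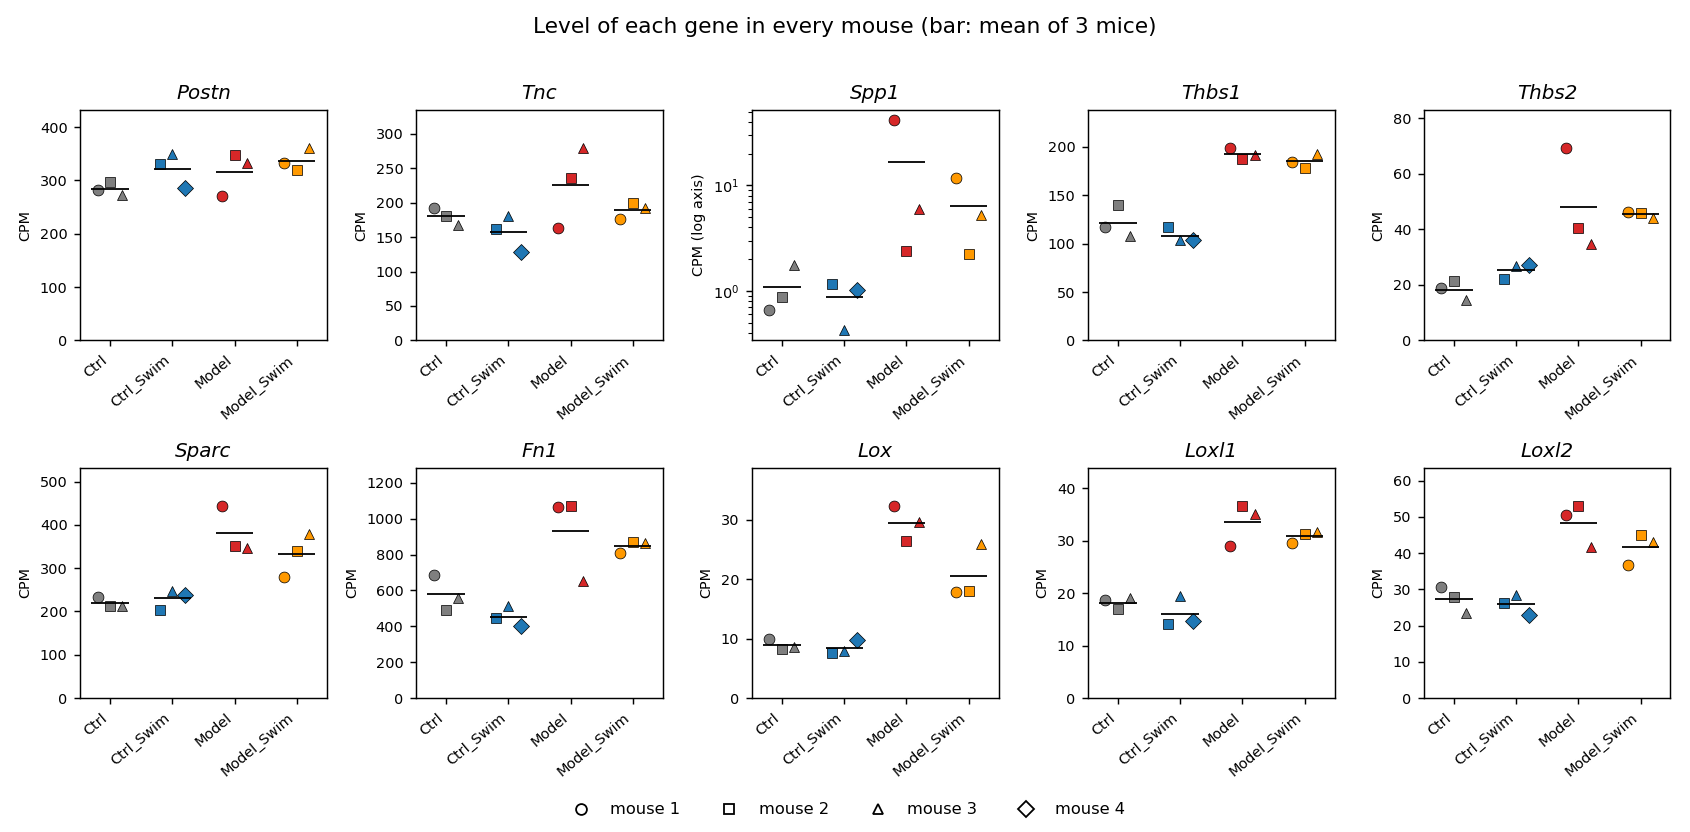
Level of each of the 10 genes in every mouse, in CPM after TMM scaling on a linear axis from 0 (for Spp1 on a log axis), with the mean of 3 mice as a bar and the mouse's number as the symbol. Lox is the gene in which the 3 Model mice (26.4 to 32.3 CPM) lie above all others, while the mice of Postn overlap in every group.

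RefSeq promoter windows on GRCm38.p6 were at hand for 5 of the 10 genes, and the 250 bases before the start site closest to the GENCODE gene start are shown, because 3 of these 5 genes (Spp1, Thbs2 and Sparc) were higher in Model than in Ctrl mice and the other 2 (Postn and Tnc) did not pass the test. Each is printed 5′ to 3′ on the gene's own strand, with matches to the searched motifs in capitals. For Postn this start site lies 1840 bases inside the RefSeq gene given below, whose own start has a window with none of the searched motifs.
Postn, chr3:54360857-54361106, plus strand: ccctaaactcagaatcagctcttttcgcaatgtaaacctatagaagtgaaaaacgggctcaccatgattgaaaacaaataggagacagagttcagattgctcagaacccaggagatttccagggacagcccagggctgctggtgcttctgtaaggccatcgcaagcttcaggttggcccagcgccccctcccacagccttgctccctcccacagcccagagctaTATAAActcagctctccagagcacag
Tnc, chr4:64047016-64047265, minus strand: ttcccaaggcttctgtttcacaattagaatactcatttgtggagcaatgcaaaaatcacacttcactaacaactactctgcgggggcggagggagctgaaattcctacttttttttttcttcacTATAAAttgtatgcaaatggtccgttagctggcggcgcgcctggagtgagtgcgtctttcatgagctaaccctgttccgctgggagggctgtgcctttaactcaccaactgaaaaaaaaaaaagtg
Spp1, chr5:104434861-104435110, plus strand: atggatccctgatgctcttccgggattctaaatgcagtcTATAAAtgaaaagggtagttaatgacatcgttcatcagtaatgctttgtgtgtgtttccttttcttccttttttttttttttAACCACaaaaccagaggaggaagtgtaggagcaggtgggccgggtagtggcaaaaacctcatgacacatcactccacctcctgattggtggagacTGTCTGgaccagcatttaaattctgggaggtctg
Sparc, chr11:55420081-55420330, minus strand: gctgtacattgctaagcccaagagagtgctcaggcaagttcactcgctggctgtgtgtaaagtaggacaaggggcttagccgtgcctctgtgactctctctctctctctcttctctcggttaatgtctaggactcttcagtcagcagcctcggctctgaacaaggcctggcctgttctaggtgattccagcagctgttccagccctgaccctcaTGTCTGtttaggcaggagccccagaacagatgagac
Thbs2, chr17:14694263-14694512, minus strand: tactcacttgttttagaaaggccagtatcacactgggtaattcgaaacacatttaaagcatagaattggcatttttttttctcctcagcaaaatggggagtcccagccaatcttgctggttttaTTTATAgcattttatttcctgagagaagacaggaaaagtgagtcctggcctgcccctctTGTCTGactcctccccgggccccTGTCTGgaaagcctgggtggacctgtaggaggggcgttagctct

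The motifs searched on both strands were TATAAA (the TATA box), CAGACA (the CAGA element of SMAD factors, TGTCTG on the other strand), TGANTCA (AP-1), GGAATG (TEAD), AACCAC (RUNX) and the CArG box of serum response factor. In the windows printed above, CAGACA was found on the reverse strand for the 3 of these 5 genes that were higher in Model mice. It lay at 34 bases before the start site of Spp1, at 36 before that of Sparc and at 67 and 44 before that of Thbs2. Lox, left out with its chromosome, and the other genes without a window here were not searched. It was in neither the Postn nor the Tnc window printed above. Windows of another start site go against this split, since that of Tnc held it at 71 bases before the site and that of Spp1 did not hold it. Of all 32851 promoter windows of this length, 17.1% held CAGACA. The letters of the TATA box were found at 26 bases before the Postn start site, at 126 before those of Tnc and Thbs2 and at 211 before that of Spp1, and 12.4% of all windows held it. AACCAC was found at 129 bases before the Spp1 start site and is in 10.8% of all windows. TGANTCA (6.75% of windows), GGAATG (12.6%) and the CArG box (1.47%) were in none of the 5. These matches describe letters only.

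The first comparison asks which of these genes AOM/DSS changed in mice that did not swim. Of the 10 genes, 8 were higher in Model than in Ctrl mice at an adjusted p under 0.05 (edgeR's quasi-likelihood test with Benjamini-Hochberg adjustment over all 15484 genes), none was lower, and Postn and Tnc did not pass. Among all genes tested, 16.5% were called higher and 16.2% lower. Spp1, Thbs2 and Lox were also past a 2-fold change, which held for 6.21% of all genes. In 7 of the 10 the 3 Model mice lay above the 3 Ctrl mice without overlap, against 21.0% of all genes. The median log2 fold change was 0.81 over the 10 genes and 0.01 over all genes tested. With DESeq2 in place of edgeR, 8 of the 10 genes were again past the adjusted p.

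Lox, the founding lysyl oxidase, lies at chr18:52516060-52529867 on the minus strand (GRCm38.p6, RefSeq, as for all positions here). Its level was 9.87, 8.23 and 8.63 CPM in the 3 Ctrl mice and 32.3, 26.4 and 29.5 CPM in the 3 Model mice. All Model mice were high, and the lowest of them lay well above the highest Ctrl mouse. The difference was 3.30-fold (log2 fold change 1.72, SE 0.17, adjusted p = 0.000316), and it stayed between 1.38 and 1.82 on the log2 scale over 25 alternative settings. These settings do not include the fibroblast covariate described below, with which no gene passed.

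Loxl1, an oxidase tied to elastic fibres (chr9:58287723-58313212, minus strand), had 18.6, 16.9 and 19.1 CPM in Ctrl mice and 29.0, 36.6 and 35.1 CPM in Model mice. Its log2 fold change was 0.88 (SE 0.13, adjusted p = 0.00101). Loxl2, which also oxidizes collagen IV of basement membranes (chr14:69608692-69695834, plus strand), had 30.8, 27.8 and 23.4 CPM in Ctrl mice and 50.5, 53.0 and 41.7 CPM in Model mice. Both genes were thus higher in each Model mouse than in any Ctrl mouse. For Loxl2 the log2 fold change was 0.82 (SE 0.13, adjusted p = 0.00147). Summed, the 3 oxidases rose from between 51.2 and 59.2 CPM in Ctrl mice to between 106 and 116 CPM in Model mice.

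The thrombospondins Thbs1 and Thbs2 are secreted inhibitors of blood vessel growth, and thrombospondin-1 also activates latent TGF-beta. Thbs1 (chr2:118111876-118127133, plus strand) had 117, 139.6 and 108 CPM in Ctrl mice and 198, 187 and 192 CPM in Model mice. The 3 Model mice were close to each other and all above the Ctrl mice, with a log2 fold change of 0.67 (SE 0.09, adjusted p = 0.000835). Thbs2 (chr17:14665500-14694262, minus strand) had 18.7, 21.3 and 14.7 CPM in Ctrl mice and 69.2, 40.5 and 34.7 CPM in Model mice. Model 1 was the highest of all 12 mice for Thbs2, at 1.50 times the next mouse. The log2 fold change was 1.40 (SE 0.23, adjusted p = 0.00165), and without Model 1 it was 1.06 (adjusted p = 0.00134).

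Sparc encodes osteonectin, a collagen-binding protein (chr11:55394159-55420080, minus strand). Its level was 233, 213 and 213 CPM in Ctrl mice and 444, 352 and 347 CPM in Model mice. No Model mouse overlapped with a Ctrl mouse, and the log2 fold change was 0.79 (SE 0.13, adjusted p = 0.00174). Without Model 1, its highest mouse, the value was 0.68 (adjusted p = 0.00388).

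Spp1 encodes osteopontin, an integrin-binding phosphoprotein made by macrophages and epithelium among others (chr5:104435111-104441053, plus strand). It was the gene with the fewest reads and the widest spread. Its counts were 12, 16 and 32 in Ctrl mice, or 0.662, 0.872 and 1.76 CPM. In Model mice its counts were 774, 44 and 104, or 41.5, 2.40 and 5.97 CPM. All Model mice were above all Ctrl mice, but Model 1 alone was far above the other 2. The fitted log2 fold change was 3.91 (SE 1.02, adjusted p = 0.0145), which is 15.1-fold with a 95% interval from 3.19 to 71.1. Without Model 1 it fell to 1.93 (adjusted p = 0.0575), and without Model 1 and Model 3 together it was 1.10 (adjusted p = 0.331). The call was also lost without Ctrl 1 (adjusted p = 0.0573) or Ctrl 2 (adjusted p = 0.0587). Gm42793, a GENCODE gene model of type TEC, shares 309 exon bases with Spp1 on the same strand, and how the counting treated such reads is not given in the sources used here.

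Fn1 (chr1:71585473-71653280, minus strand) had 684, 491 and 558 CPM in Ctrl mice and 1066, 1071 and 652 CPM in Model mice. Model 3 lay within the range of the Ctrl mice, so the groups overlapped. The log2 fold change was 0.69 (SE 0.18, adjusted p = 0.0162). The call was lost without Ctrl 2 (adjusted p = 0.0672), Ctrl 3 (adjusted p = 0.0551) or Model 2 (adjusted p = 0.0567), while without Model 3 the log2 fold change was 0.90 (adjusted p = 0.000677).

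Postn and Tnc are the 2 genes of the set that did not pass between Model and Ctrl mice. Postn encodes periostin, a protein of collagen-rich and healing tissue (chr3:54359267-54391041, plus strand). It had 283, 297 and 273 CPM in Ctrl mice and 271, 347 and 332 CPM in Model mice, with Model 1 the lowest of all 12 mice. Its log2 fold change was 0.16 with a 95% interval from −0.07 to 0.38 (adjusted p = 0.265). Tnc encodes tenascin-C, which is deposited in wounds and tumour stroma (chr4:63959785-64047015, minus strand). It had 193, 181 and 167 CPM in Ctrl mice and 164, 236 and 279 CPM in Model mice. Model 1 was again below the Ctrl mice, and the log2 fold change was 0.33 with an interval from −0.05 to 0.70 (adjusted p = 0.160). Without Model 1, Tnc had a log2 fold change of 0.53 (adjusted p = 0.0121) and Postn of 0.27 (adjusted p = 0.0396). Without Model 3, Tnc had 0.16 (adjusted p = 0.456) and Postn 0.13 (adjusted p = 0.389). With both libraries left out together, the values were 0.37 for Tnc and 0.27 for Postn. Whether either gene is called thus depends on which of these libraries are kept.

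Exon bases of Tnc, Thbs1, Fn1, Lox and Loxl2 are also covered by an annotated gene on the opposite strand, over between 30 and 301 bases. The strand setting of the counting is not given in the sources used here, so reads of the antisense genes could not be told apart from those of these 5 genes.

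**Figure D2:**
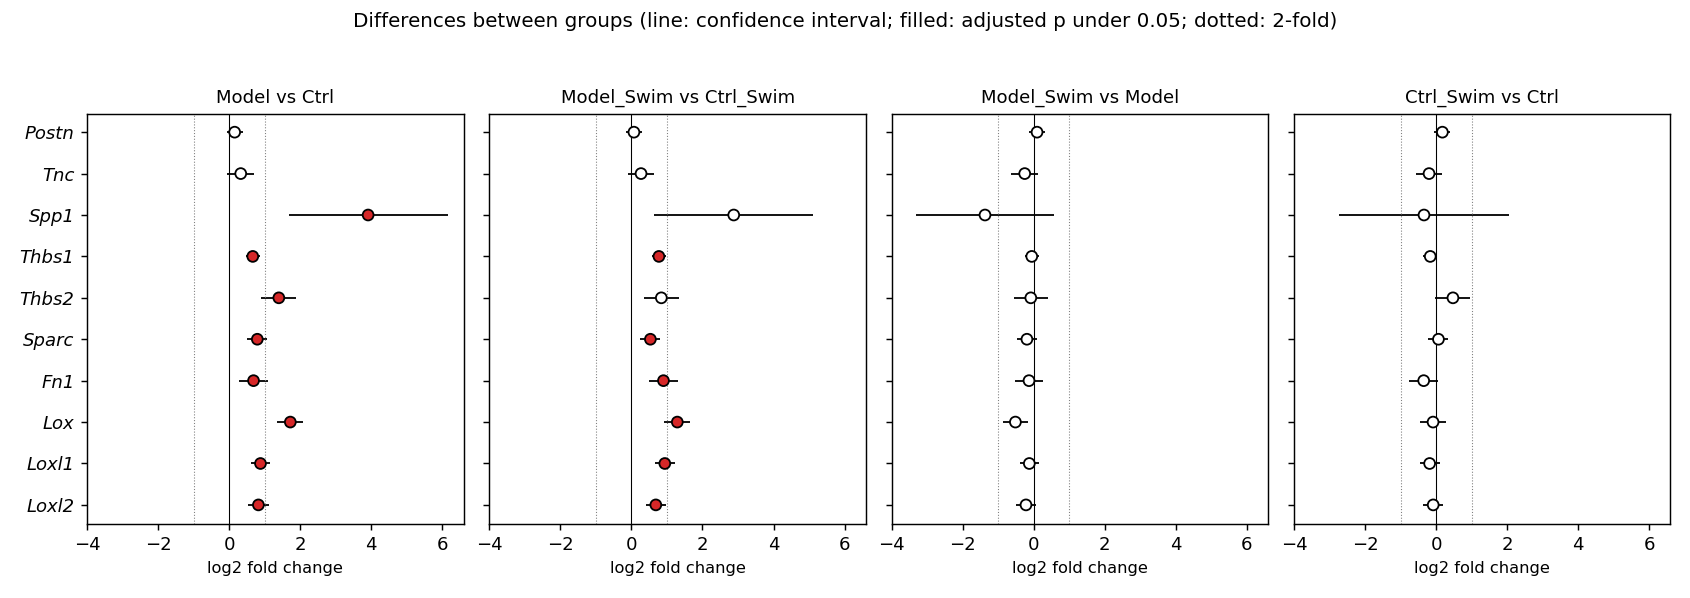
Log2 fold change of each gene in 4 comparisons with its 95% interval (edgeR, 3 mice per group), filled where the adjusted p is under 0.05, with dotted lines at a 2-fold change. Between Model and Ctrl 8 of 10 points are filled, between Model_Swim and Ctrl_Swim 6, and in the 2 comparisons of swimming none.

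Genes related to these were counted by list. Each count between Model and Ctrl mice stands against the 16.5% of all genes called higher and the 16.2% called lower. Of 17 other matricellular genes tested, 11 were higher in Model than in Ctrl mice at an adjusted p under 0.05 and 0 lower, with a median log2 fold change of 0.51. The largest were those of Wisp2 (3.12, adjusted p = 0.00218) and Cyr61 (1.47, adjusted p = 0.00945), secreted proteins of the CCN family, and of the Sparc relative Smoc1 (0.97, adjusted p = 0.0175). Other enzymes and chaperones of collagen processing were higher in 7 of 12 and lower in 0, led by the procollagen C-proteinase Bmp1 (0.88, adjusted p = 0.000316), the collagen chaperone Serpinh1 (0.67, adjusted p = 0.00132) and the oxidase Loxl3 (0.63, adjusted p = 0.0247).

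Of 10 elastic fibre genes, the substrates on which lysyl oxidases act among them, 6 were higher and 0 lower. Ltbp2 had a log2 fold change of 2.81 (adjusted p = 0.00167), elastin (Eln) of 1.46 (adjusted p = 0.00463) and Mfap4 of 1.15 (adjusted p = 0.000601). Of 15 genes of integrins and other receptors of these proteins, 8 were higher and 0 lower. The integrin genes Itga4 (1.13, adjusted p = 0.00395), Itgb8 (1.12, adjusted p = 0.0326) and Itgav (0.84, adjusted p = 0.000407) had the largest differences. None of the 54 genes of these 4 lists passed between Model_Swim and Model mice (0.0710% of all genes), nor between Ctrl_Swim and Ctrl mice (0.969%).

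**Figure D3:**
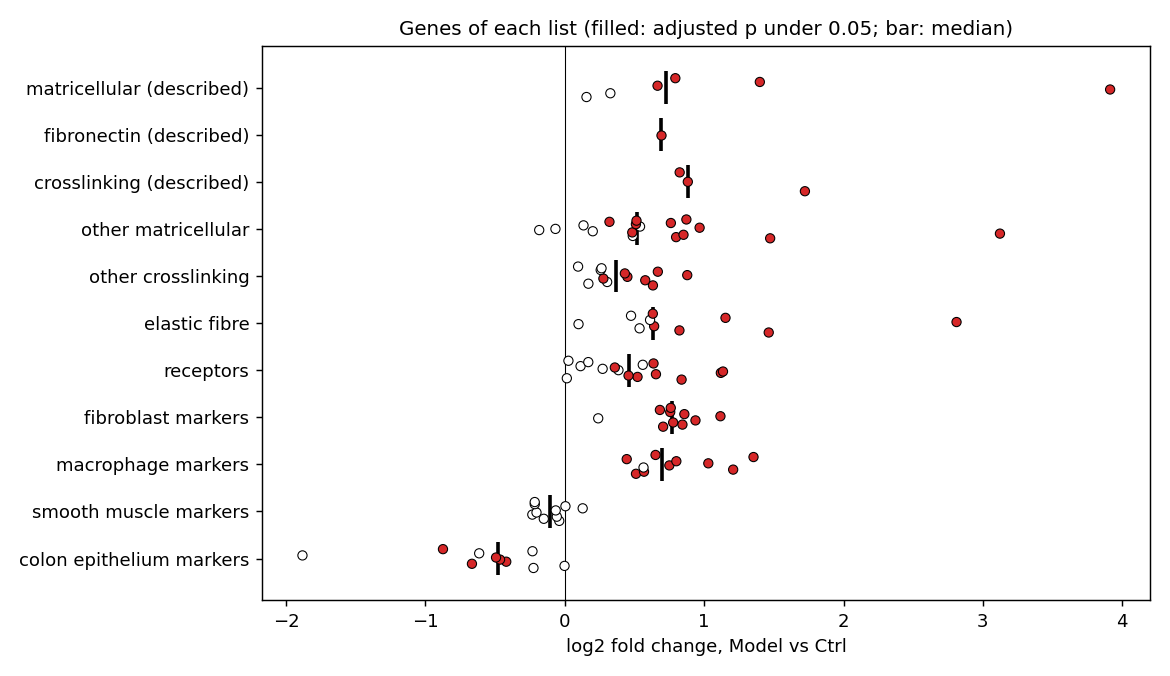
Log2 fold change between Model and Ctrl mice (horizontal axis) of each tested gene in lists of the described genes, of related genes and of cell type markers, filled where the adjusted p is under 0.05, with a bar at the list's median. The fibroblast (median 0.77) and macrophage (0.70) markers lie in the range of the described genes, and the smooth muscle markers lie around 0 (median −0.11).

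Markers of several cell types moved along with these genes. Their counts stand against 16.5% of all genes called higher and 16.2% called lower between Model and Ctrl mice. Of 10 fibroblast markers 9 were higher in Model than in Ctrl mice, and their summed level was 1538 to 1665 CPM in Ctrl mice, 1428 to 1690.0 CPM in Ctrl_Swim mice, 2648 to 2901 CPM in Model mice and 2049 to 2659.5 CPM in Model_Swim mice. Between Ctrl_Swim and Ctrl mice 1 fibroblast marker was higher at an adjusted p under 0.05 and 0 lower, against 0.969% of all genes called. An unadjusted p under 0.05 was found there for 5 of the 10, against 17.6% of all genes. Of 10 macrophage markers 9 were higher in Model than in Ctrl mice. Their summed level was 446 to 464 CPM in Ctrl, 409 to 516 CPM in Ctrl_Swim, 850 to 914 CPM in Model and 724 to 866 CPM in Model_Swim mice. No marker of either list was at 0, and the defining markers Pdgfra and Adgre1 were at least 61.8 and 11.4 CPM in every library. Smooth muscle markers were past the test in 0 of 10, with 8497 to 8820.4 CPM in Ctrl and 6707 to 9883 CPM in Model mice. Fewer or more cells of a type and less or more RNA per cell cannot be told apart in whole tissue. The fibroblast sum lay above every Ctrl and Ctrl_Swim mouse in all 6 AOM/DSS mice, and so did the macrophage sum. The level of either list and AOM/DSS thus cannot be told apart in these libraries. With the fibroblast list as a covariate 0 of all 15484 genes passed.

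Other markers were counted in the same way. Of 10 colon epithelium markers 5 were lower in Model mice and 0 higher, with 25561 to 29264 CPM in Ctrl and 12315 to 25601 CPM in Model mice. Of 10 squamous epithelium markers 8 were higher, and they summed to 9.86 to 13.5 CPM in Ctrl and 25.0 to 1410 CPM in Model mice. With the squamous list as a covariate, 6 of the 10 described genes remained past the adjusted p between Model and Ctrl, and Spp1 (adjusted p = 0.0849) and Fn1 (adjusted p = 0.141) did not. Neutrophil markers were higher in 6 of 8 and endothelial markers in 2 of 8. Platelet markers, which matter here because platelets store thrombospondin-1, were higher in 1 of 4 and lower in 1. The endothelial and platelet counts lie near the shares over all genes, 16.5% higher and 16.2% lower. The part of epithelium, neutrophils, endothelium and platelets in the levels of the 10 genes was not tested.

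**Figure D4:**
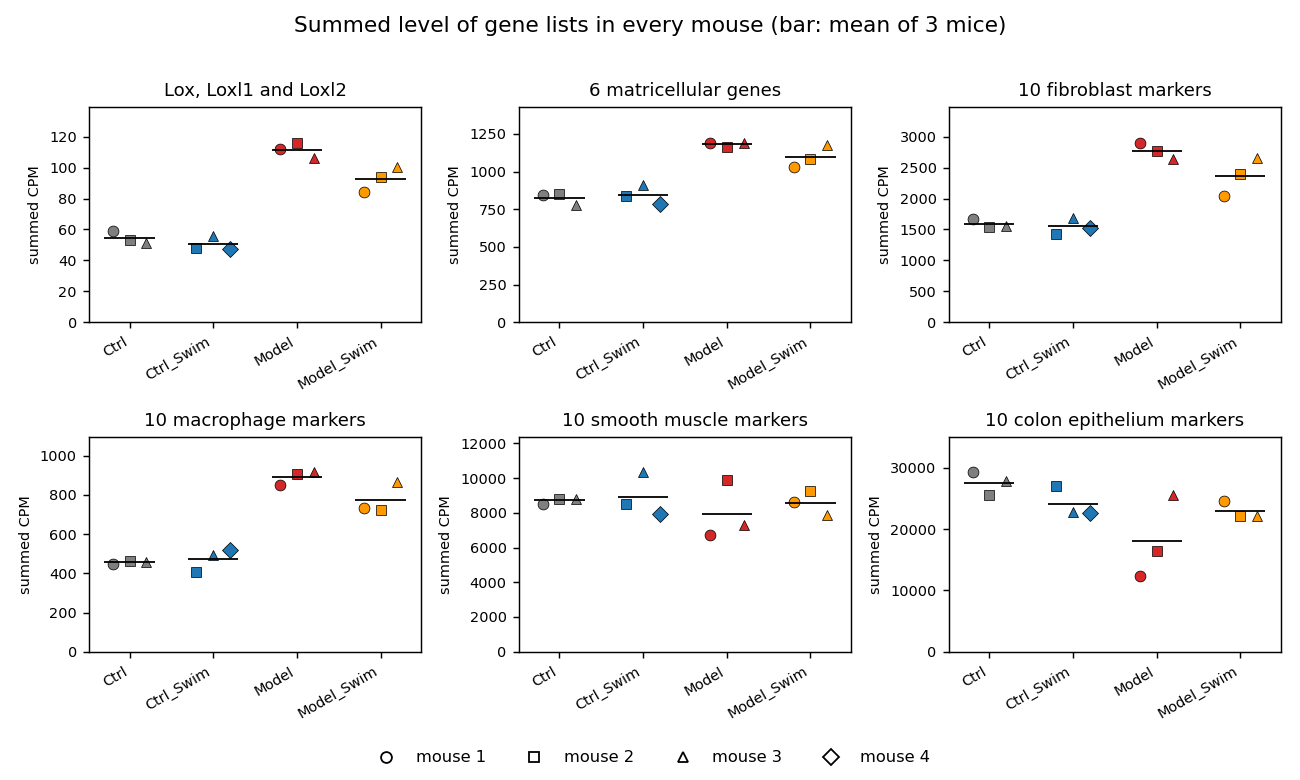
Summed CPM of 2 sets of the described genes and of 4 lists of cell type markers in every mouse, on linear axes from 0, with the mean of 3 mice as a bar. The sum of Lox, Loxl1 and Loxl2 separates the 6 AOM/DSS mice (84.1 to 116 CPM) from the other 6 (47.2 to 59.2 CPM), as do the matricellular, fibroblast and macrophage sums.

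The second comparison asks for the AOM/DSS difference among mice that swam. Between Model_Swim and Ctrl_Swim mice 6 of the 10 genes were higher at an adjusted p under 0.05 (Thbs1, Sparc, Fn1, Lox, Loxl1 and Loxl2), 0 were lower, and 3.49% of all genes were called higher. At an unadjusted p under 0.05 it was 8 of 10, against 22.4% of all genes. The groups did not overlap in 8 of 10, all higher in Model_Swim, against 15.9% of all genes. Lox was also past a 2-fold change, as were 0.924% of all genes. The median log2 fold change was 0.81 over the 10 genes and −0.01 over all genes. These counts depended more on single mice than those between Model and Ctrl, and ranged from 3 (without Ctrl_Swim 2, Ctrl_Swim 4, Model_Swim 2 or Model_Swim 3) to 8 (without Model 1). With a term for traces of pancreatic reads by the summed list the count was 0, and 2 of all genes were then called. That term sets Ctrl_Swim 2 and Ctrl_Swim 4 apart from the other 10 libraries and so lies largely along the Ctrl_Swim group itself. The Model_Swim mice are then compared with Ctrl_Swim 3 alone, and the part of pancreatic reads in the lost calls was not tested. With a term that divides the libraries at 1 CPM of the acinar gene Pnlip instead, chosen after seeing the data, the count was 4 (Thbs1, Lox, Loxl1 and Loxl2). That term puts all Model_Swim mice with Ctrl_Swim 2 and Ctrl_Swim 4, so that Ctrl_Swim 3 no longer enters the difference.

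Lox had 7.56, 7.92 and 9.71 CPM in Ctrl_Swim mice and 17.8, 18.0 and 25.9 CPM in Model_Swim mice. Each Model_Swim mouse was above each Ctrl_Swim mouse, and the log2 fold change was 1.29 (SE 0.16, adjusted p = 0.00398). Loxl1 had 14.0, 19.4 and 14.7 CPM in Ctrl_Swim mice and 29.5, 31.2 and 31.6 CPM in Model_Swim mice (log2 fold change 0.94, SE 0.13, adjusted p = 0.00468). Loxl2 had 26.2, 28.6 and 22.8 CPM against 36.9, 45.0 and 43.0 CPM (log2 fold change 0.69, SE 0.13, adjusted p = 0.0183). The groups did not overlap in any of the 3 oxidases. Loxl2 lost the call in 7 of the 25 alternative settings, among them those without Ctrl_Swim 2 (adjusted p = 0.0615), Ctrl_Swim 4 (adjusted p = 0.0572), Model_Swim 2 (adjusted p = 0.0721) or Model_Swim 3 (adjusted p = 0.0710).

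Thbs1 had 117, 104 and 104 CPM in Ctrl_Swim mice and 184, 178 and 193 CPM in Model_Swim mice, with a log2 fold change of 0.77 (SE 0.09, adjusted p = 0.00342). Sparc had 204, 248 and 239 CPM against 279.5, 340.2 and 380.1 CPM (log2 fold change 0.53, SE 0.13, adjusted p = 0.0398). In neither gene did the groups overlap, although Sparc passed narrowly and lost the call in 16 of 25 alternative settings. Fn1 had 444, 516 and 401 CPM in Ctrl_Swim mice and 807, 872 and 862 CPM in Model_Swim mice. It was the gene whose swimming groups were clearly apart where Ctrl and Model mice overlapped, with a log2 fold change of 0.90 (SE 0.18, adjusted p = 0.0238). Its call was lost without any 1 of the 6 swimming mice (adjusted p from 0.0549 to 0.0806).

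Thbs2 and Spp1 were apart between these groups without passing the test. Thbs2 had 22.2, 26.8 and 27.0 CPM in Ctrl_Swim mice and 46.1, 46.0 and 44.2 CPM in Model_Swim mice, a narrow range in both (log2 fold change 0.84, SE 0.22, adjusted p = 0.0523). In a fit of these 2 groups alone its adjusted p was 0.00341. Spp1 had 1.15, 0.425 and 1.02 CPM against 11.8, 2.23 and 5.19 CPM (log2 fold change 2.88, SE 1.02, adjusted p = 0.125). Without Model 1, whose spread enters the shared fit, the adjusted p was 0.0286 for Spp1 and 0.00731 for Thbs2. Postn (log2 fold change 0.07, interval −0.16 to 0.30) and Tnc (0.27, interval −0.11 to 0.65) overlapped between the groups and did not pass here either.

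The third comparison asks what swimming changed in AOM/DSS mice. None of the 10 genes passed between Model_Swim and Model mice by edgeR's quasi-likelihood test or by DESeq2, and 0.0710% of all genes did by edgeR. At an unadjusted p under 0.05 only Lox did (13.6% of all genes). It was also the only 1 of the 10 whose groups were apart, lower in Model_Swim, which held for 8.57% of all genes. This comparison shares its Model mice with that of Model and Ctrl, so a high Model mouse raises one difference and lowers the other.

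Lox had 17.8, 18.0 and 25.9 CPM in Model_Swim mice, below the 26.4 to 32.3 CPM of the Model mice by a narrow gap between Model_Swim 3 and Model 2. Its log2 fold change was −0.52 with a 95% interval from −0.87 to −0.17 (adjusted p = 0.229). Over the 25 alternatives the value stayed between −0.73 and −0.34 and the adjusted p between 0.0995 and 0.981. The Model_Swim mice still lay above all Ctrl and Ctrl_Swim mice.

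In Loxl2 the log2 fold change was −0.22 (interval −0.50 to 0.06) and in Loxl1 −0.12 (interval −0.40 to 0.15). The sum of the 3 oxidases was 84.1, 94.1 and 101 CPM in Model_Swim mice, below the 106 to 116 CPM of Model mice. This sum includes Lox and was not tested, and Loxl1 and Loxl2 each overlapped between the groups. Among the matricellular genes the values were −0.25 in Tnc (interval −0.63 to 0.12), −0.19 in Sparc (interval −0.47 to 0.09), −0.06 in Thbs1 (interval −0.26 to 0.14) and 0.09 in Postn (interval −0.13 to 0.32). Fn1 had −0.13 (interval −0.54 to 0.27). The intervals of these genes do not reach a 2-fold difference in either direction, and none of them passed.

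Spp1 and Thbs2 depended on Model 1. For Spp1 the log2 fold change was −1.37 with an interval from −3.32 to 0.57 (adjusted p = 0.530), and it turned to 0.62 without Model 1 and to 1.43 without Model 1 and Model 3 together. For Thbs2 it was −0.08 (interval −0.56 to 0.39) and turned to 0.27 without Model 1. Neither passed in any of these fits, so no direction can be given for either gene.

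The fourth comparison asks what swimming changed in mice without AOM/DSS. Between Ctrl_Swim and Ctrl mice none of the 10 genes passed by edgeR or DESeq2, and 0.969% of all genes did by edgeR. None had an unadjusted p under 0.05 either, against 17.6% of all genes. Thbs2 was the only 1 of the 10 without overlap between the groups, higher in Ctrl_Swim (22.2 to 27.0 CPM) than in Ctrl (14.7 to 21.3 CPM), which held for 12.6% of all genes. Its log2 fold change was 0.47 with an interval from −0.02 to 0.97 (adjusted p = 0.301). Endothelial markers summed to 322 to 338 CPM in Ctrl and 372 to 480.1 CPM in Ctrl_Swim mice, and their part in this value was not tested. Fn1 had a log2 fold change of −0.35 (interval −0.75 to 0.05), and the other 8 genes lay between −0.34 in Spp1 and 0.18 in Postn.

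Whether swimming altered the AOM/DSS difference was tested as an interaction. None of the 10 genes passed by edgeR or DESeq2, and 0% of all genes did by edgeR. None of the 10 had an unadjusted p under 0.05, against 19.0% of all genes. The difference of log2 fold changes was −0.43 in Lox (SE 0.23, adjusted p = 0.330), −0.56 in Thbs2 (SE 0.31, adjusted p = 0.355) and −0.26 in Sparc (SE 0.18, adjusted p = 0.469). It was 0.21 in Fn1 (SE 0.26) and −1.03 in Spp1 (SE 1.40). A gene past the threshold in only 1 of the 2 AOM/DSS comparisons, such as Spp1 or Thbs2, is therefore not shown to respond differently with swimming.

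Over all 12 mice, 7 of the 10 genes separated the 6 AOM/DSS mice from the other 6 without overlap: Spp1, Thbs1, Thbs2, Sparc, Lox, Loxl1 and Loxl2. Of all genes tested, 925 (5.97%) did so in the same direction. Lox was the only 1 of the 10 in which the 3 Model mice also lay above all other 9, as did 502 genes (3.24%). The highest mouse was Model 1 for Spp1, Thbs1, Thbs2, Sparc and Lox, Model 2 for Fn1, Loxl1 and Loxl2, Model 3 for Tnc and Model_Swim 3 for Postn, so that no library was high in all 10.

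Genes whose levels ran most like each of the 10 were sought among 14390 genes by Pearson's r on log2 CPM over the 12 libraries, as a description without a test, since the libraries share their group structure. For Lox these were Il4ra (r = 0.99), the collagen gene Col4a1 (0.98) and Ccdc88b (0.98). For Loxl2 they included the fibrillar collagen genes Col5a1 (0.97) and Col5a2 (0.97), and for Sparc Mfap4 (0.97), Csf3r (0.97) and the collagen gene Col1a2 (0.97). For Loxl1 the closest were Tln1 (0.98) and the macrophage genes Ms4a7 (0.98) and Fcgr2b (0.98). Fn1 ran with Grn (0.97), Thbs2 with Rbms1 (0.98), Thbs1 with Dusp1 (0.96) and Spp1 with Slc6a9 (0.94). With the group means taken out, r was lower for every pair named in this paragraph, to differing degrees. It was 0.46 for Thbs1 with Dusp1, and 0.76, 0.65 and 0.58 for Lox with Il4ra, Col4a1 and Ccdc88b. For Fn1 with Grn it was 0.92. Tnc (Col6a1, 0.90) and Postn (Peak1, 0.89), the genes that did not pass in any comparison, had the weakest closest match of the 10.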

How the data were processed

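RNA was extracted from colorectal tissue (TRIzol per the methods, mirVana per the labels), and sequenced as TruSeq Stranded mRNA libraries on the HiSeq X platform. The authors trimmed reads with Trimmomatic, mapped them to GRCm38.p6 with HISAT2, and deposited raw read counts per gene from HTSeq-count and FPKM values from Cufflinks. Versions, annotation and strand setting are not given in the sources used here. The labels set the groups.

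Testing used edgeR 4.0.16 under R 4.3.3, with TMM scaling, filterByExpr with a minimum count of 10, and 1 quasi-likelihood fit of the 4 groups over 12 libraries, adjusted by Benjamini-Hochberg over all 15484 genes tested. Calls used an adjusted p under 0.05, alone or with a fold change over 2 or under 0.5. Log2 CPM used a prior count of 2. Alternatives were DESeq2 1.42.0 (the study's tool), its size factors, no filter, separate fits, a replicate block, limma 3.58.1 on log2(FPKM + 1) or log2(FPKM + 0.1), covariates, and leaving out libraries. The code was tested on simulated data. The 10 genes and all lists were chosen with earlier results of these data known. All 10 genes are named, and from each related list the 3 largest increases past the adjusted p. Promoter windows came from RefSeq, and for the 10 genes those on chromosome 18 were left out. In 12 gene names a date stands in place of the symbol, and these were kept as listed.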

Additional observations from a re-analysis of the deposited data

How the results depend on the processing

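Groups held 3 mice each, and Spp1 rested on 8 to 774 reads per library. Beside the fibroblast covariate, for which counts alone were taken, the 25 alternative settings (24 for the interaction) gave 1240 values for the 50 fold changes of the 10 genes, of which 1127 kept their direction and their side of the threshold, 50 lost the call, 11 gained it and 52 changed sign, none of those being called. Not every setting could move every value. Leaving out a mouse of neither group compared moved the fold change little, and the pancreatic terms left that between Model and Ctrl unchanged. The 1127 also include values that stayed uncalled in comparisons where no gene was called. The Pnlip term and the fibroblast covariate were chosen after seeing the data. In the limma fits on FPKM the median of all genes shifted by up to 0.11. With Model 1 and Model 3 left out together, the lone Model mouse is assumed to vary like the other groups. Apart from the pancreatic terms, whose action follows from how they divide the libraries, the cause of the changes below was not tested.

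Between Model and Ctrl, the 3 genes past both cutoffs became 8 by the adjusted p alone and 0 with the fibroblast covariate, and the 8 past the adjusted p became 0 with that covariate. Leaving out 1 library gave 2 to 3 and 6 to 9 genes. Between Model_Swim and Ctrl_Swim, 1 gene was past both cutoffs. It became 2 with DESeq2, with only these groups fitted, without Model 1 and Model 3 together, with the squamous covariate and with the Pnlip term. It became 0 with limma on log2(FPKM + 1), with the same and no filter, with the summed pancreatic term and with the fibroblast covariate, and 6 by the adjusted p alone. Leaving out 1 library gave 1 to 2. The 6 genes past the adjusted p became 4 with the Pnlip term, 3 with the squamous covariate and 0 with the fibroblast covariate. They became 0 with the summed pancreatic term too, which sets apart Ctrl_Swim 2 and Ctrl_Swim 4 alone, and leaving out 1 library gave 3 to 8. In the other comparisons the count was 0 in every setting.

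Replicate numbers are not stated to be shared between groups, and deviations of same-numbered libraries correlated between −0.26 and 0.56, so they were not taken as pairs. With a replicate block, 8 genes passed the adjusted p between Model and Ctrl and 1 between Model_Swim and Ctrl_Swim, where 40 of all genes then passed in place of 802. Between Ctrl_Swim and Ctrl the block turned Spp1 to 0.11 and Loxl2 to 0.022 (log2 fold change, as below).

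Sign changes of other genes, none of them called, were as follows. Between Model_Swim and Model, leaving out Model 1 and Model 3 together gave Postn −0.023, Spp1 1.43, Thbs1 0.0018 and Thbs2 0.18, and the Pnlip term gave Tnc 0.054, Thbs2 0.038, Fn1 0.15, Loxl1 0.31 and Loxl2 0.0020. All Model mice were on one side of the Pnlip term and all Model_Swim mice on the other. It thus only adds the difference of Ctrl_Swim 3 from Ctrl_Swim 2 and Ctrl_Swim 4. Between Ctrl_Swim and Ctrl, the Pnlip and summed pancreatic terms both gave Tnc 0.000513, Loxl1 0.093 and Loxl2 0.062. These are differences of Ctrl_Swim 3 alone from Ctrl, since both terms set Ctrl_Swim 2 and Ctrl_Swim 4 apart. There limma gave Lox 0.026 and Loxl2 0.040 on log2(FPKM + 1), with and without the filter, and Lox 0.036 and Loxl2 0.049 on log2(FPKM + 0.1). Between Model_Swim and Ctrl_Swim, the summed pancreatic term gave Postn −0.049, again with Ctrl_Swim 3 alone for its group. In the interaction, leaving out Model 1 and Model 3 together gave Spp1 1.76 and Loxl1 −0.059, the Pnlip term gave Tnc 0.054, the summed pancreatic term Loxl1 −0.22 and the smooth muscle covariate Spp1 0.25. For the interaction the summed term leaves Ctrl_Swim 3 alone for its group, and the Pnlip term leaves Ctrl_Swim 2 and Ctrl_Swim 4. There limma gave Thbs1 −0.039 and Loxl1 −0.067 on log2(FPKM + 1), with and without the filter, and Thbs1 −0.040 and Loxl1 −0.065 on log2(FPKM + 0.1).

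Leaving out 1 library in turn gave ranges that crossed 0 for 11 values. Between Model_Swim and Model these were −0.014 to 0.15 for Postn, −2.18 to 0.62 for Spp1 and −0.27 to 0.27 for Thbs2. Between Ctrl_Swim and Ctrl they were −0.58 to 0.19 for Spp1, −0.19 to 0.012 for Lox and −0.17 to 0.028 for Loxl2, and between Model_Swim and Ctrl_Swim −0.011 to 0.13 for Postn. In the interaction they were −0.26 to 0.11 for Tnc, −1.86 to 0.94 for Spp1, −0.032 to 0.16 for Thbs1 and −0.065 to 0.19 for Loxl1.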

Other observations

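Ratios between genes of the set were looked at after their values were seen, on the FPKM scale and within each library, and are given as descriptions. The ratio of Lox to Loxl1 lay between 0.300 and 0.354 in Ctrl mice and between 0.480 and 0.742 in Model mice, without overlap, and between 0.272 and 0.439 in Ctrl_Swim and 0.384 and 0.545 in Model_Swim mice, with overlap. The ratio of Thbs2 to Thbs1 was 0.135 to 0.158 in Ctrl mice, and every mouse of the other 3 groups was above this range, at 0.187 to 0.256 in Ctrl_Swim, 0.179 to 0.344 in Model and 0.226 to 0.255 in Model_Swim mice. The ratio of Fn1 to Postn was 0.544 to 0.597 in Ctrl_Swim mice, below the 0.668 to 0.978 of Ctrl mice, and 0.966 to 1.10 in Model_Swim and 0.793 to 1.59 in Model mice. No test was run on these ratios.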
